A study of Homo sapiens with 4 samples.

Results

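Knockdown of ADAR in K562 cells was described here by the log2 intensity of each gene on an exon array of ADARkd cells minus that on an array of SCR cells. Members were the genes with a single gene symbol whose log2 intensity, averaged over these 2 arrays, reached the all-gene median of 5.28. They numbered 7116 of 14232 genes, drawn from 17881 transcript clusters, and are called the kept genes below. K562 is a human chronic myeloid leukaemia line with erythroid and megakaryocytic features that carries the BCR-ABL fusion. K562 cells grown in RPMI with fetal calf serum had been stably transfected with a plasmid bearing an siRNA against ADAR1 (ADARkd) or a scrambled siRNA (SCR), and total RNA was taken from each. The siRNA was the one that had reduced ADAR most among those tried, so the low ADAR level is in part what it was chosen for. The study's stated question was how ADAR acts on alternative splicing, and the gene-level values used here do not measure splicing. The same pair of plasmids was used in HepG2, a hepatocellular carcinoma line, giving 4 arrays in all, 1 per line and arm. With 1 array per arm no difference has a replicate check, no test was possible, and no p-value or SD between arrays is given. In such bulk RNA, fewer cells of a kind and less RNA per cell cannot be told apart, and a difference between 2 stably transfected cultures cannot be told apart from an effect of ADAR.

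ADAR encodes the ADAR1 deaminase, which converts adenosine to inosine in double-stranded RNA, largely in inverted Alu repeats of introns and untranslated regions. Its long isoform is induced by interferon. Unedited cellular double-stranded RNA can be bound by MDA5, which signals through MAVS to interferon genes, and by PKR, whose phosphorylation of eIF2 alpha favours translation of ATF4. ADAR is required for fetal liver haematopoiesis in mice, and in K562 the erythroid programme of haemoglobin, heme and membrane genes is partly active.

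ADAR stood at 7.99 in SCR and 6.78 in ADARkd, a difference of -1.21, so the ADARkd array held 43.2% of the SCR intensity. Among all kept genes it had the difference ranked 7 from the lowest. The other kept deaminases of the family had much smaller differences. ADAT2, part of the tRNA wobble adenosine deaminase, stood at 8.40 and 8.19, ADAT1, which deaminates a tRNA adenosine, at 6.76 and 6.58, and ADARB1, which encodes ADAR2, at 5.88 and 5.72. ADARB2 (5.00 and 5.26, 0.27) and ADAD1 (2.41 and 3.10, 0.69) were below the filter on both arrays, where signal over background was not analysed.

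The labelled cell type was checked against marker genes. Of 26 measured erythroid markers 20 were kept, against 4 on the arrays labelled HepG2, and HBZ, the embryonic zeta globin, stood at 10.73 in SCR and 10.65 in ADARkd. GATA1, the master erythroid transcription factor, stood at 7.89 and 7.78. The 4 measured genes of the 9p21 region, which is deleted in K562, were all below the filter. CDKN2A stood at 4.12 and 4.06 where the arrays labelled HepG2 had 7.41 and 7.54. Only 2 of the 4 were kept on those arrays, and DMRTA1 (4.94 and 5.00 there) was not. Few markers of other blood or stromal cells were kept: 2 of 17 for hepatocytes, 2 of 13 for fibroblasts, 1 of 13 for lymphocytes, 2 of 9 for monocytes and 2 of 9 for granulocytes. Among these LYZ, the lysozyme of monocytes, stood at 5.67 and 5.01, under the filter in ADARkd. Of 9 epithelial markers 5 were kept, including KRT8 at 9.11 and 8.95. Summed over each list, the 2 K562 arrays differed little, with erythroid markers at 13 and 12.9, hepatocyte markers at 8.21 and 8.27 and fibroblast markers at 9.89 and 9.72 on the log2 scale. On the arrays labelled HepG2, only 2 of the 17 hepatocyte markers were kept and ALB was at 3.04 and 2.97, so those arrays are named below by their label.

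The K562 arrays were alike. Their log2 values correlated at r = 0.987 across the kept genes, which are not replicates, and 5030 genes (70.7%) differed by less than 0.2. The median difference was -0.07, 66.7% of the kept genes were below 0, the central 90% of genes lay between -0.38 and 0.22, and the SD across genes was 0.19. The genes below the filter had a median of 0.13, so dim genes were on balance higher and bright genes lower in ADARkd. List medians are therefore also given relative to the median of the kept genes. At least 2-fold apart were 11 genes (0.155% of those kept), 2 higher and 9 lower in ADARkd. At least 1.5-fold apart were 73 (1.03%), of which 19 were higher (0.267%) and 54 lower (0.759%). That split depended on scaling: 38 were higher and 24 lower after quantile normalization, and 34 and 30 after an intensity-dependent loess centring. Both counts also moved with the filter, to 30 and 247 genes with none and to 1 and 14 with one at the 75th percentile of all genes, and with an offset of 16 added to each intensity, to 7 and 30. On the arrays labelled HepG2, 1287 of 7116 kept genes (18.1%) were at least 1.5-fold apart.

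**Figure D1:**
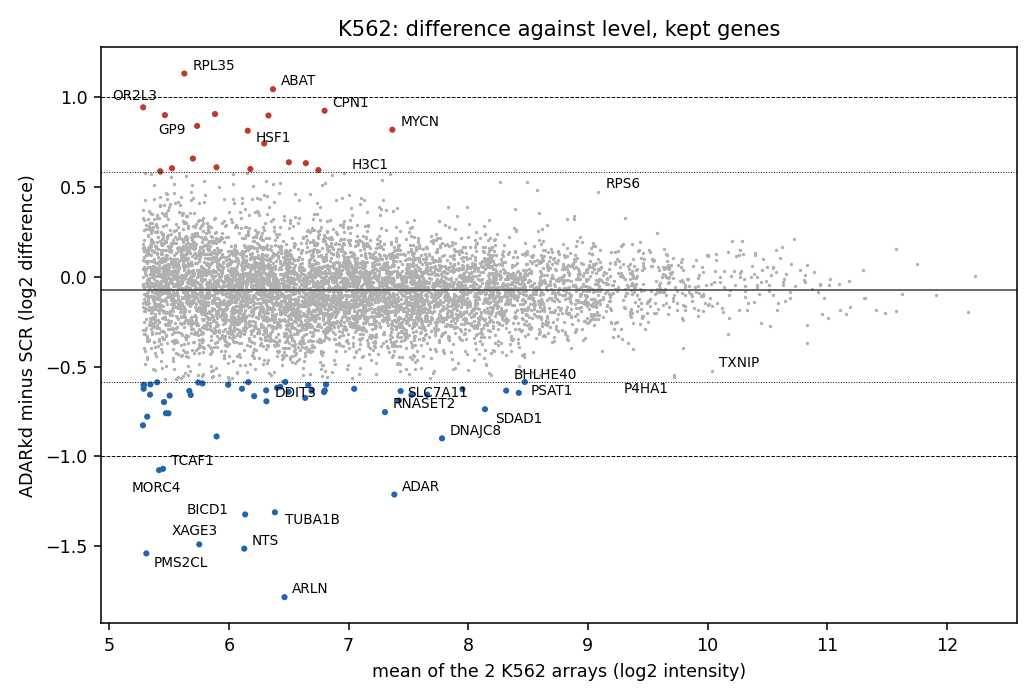
Each point is one of the 7116 kept genes; the x axis is the mean log2 intensity of the 2 K562 arrays and the y axis the log2 difference, ADARkd minus SCR. Red and blue points are the 19 genes at least 1.5-fold higher and the 54 at least 1.5-fold lower in ADARkd, dotted and dashed lines mark 1.5-fold and 2-fold, the solid line is the median of -0.07, and ADAR lies at -1.21 among the brighter of the low genes.

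Large differences were mostly found among dim genes. In 4 equal groups of 1779 kept genes ordered by level, the SD of the difference was 0.23, 0.21, 0.17 and 0.15 from the dimmest to the brightest. The dimmest group held 9 higher and 22 lower genes past 1.5-fold, and the brightest held 0 higher and 6 lower. In 16 of the 54 lower genes and 5 of the 19 higher ones the dimmer array was under the filter level, where sizes are least certain.

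The lowest difference belonged to ARLN, which encodes a micropeptide of the endoplasmic reticulum that regulates the SERCA calcium pump. It stood at 7.36 in SCR and 5.57 in ADARkd, a difference of -1.78. Its other transcript cluster, under the filter level at 4.78 and 4.31, differed by only -0.47, and the mean of both by -1.13. NTS, the precursor of the peptide neurotensin, stood at 6.88 and 5.37 (-1.51). BICD1, an adaptor that links dynein to its cargo, stood at 6.80 and 5.47 (-1.32). All were higher in SCR, and in the cluster used for each gene ADARkd was still above the filter level.

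TUBA1B, a main alpha-tubulin, stood at 7.04 in SCR and 5.73 in ADARkd (-1.31). Alpha-tubulin genes share nearly identical coding sequence, so probes could be shared, and the same applies to PMS2CL (6.08 and 4.54, -1.54), a pseudogene derived from PMS2, and RPS10P7 (6.34 and 5.45, -0.89). XAGE3, a cancer-testis gene of a repeated X-linked family, stood at 6.50 and 5.01, a difference of -1.49. For these 4 genes the source of the signal is uncertain. MORC4, a CW-type zinc finger ATPase, stood at 5.95 and 4.88 (-1.08), and TCAF1, which regulates the channel TRPM8, at 5.98 and 4.91 (-1.07). Both were under the filter in ADARkd alone.

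Among brighter genes that were lower, DNAJC8, a J-domain protein associated with the spliceosome, stood at 8.23 in SCR and 7.33 in ADARkd (-0.90). RNASET2, an acid ribonuclease of the lysosome, stood at 7.68 and 6.93 (-0.75). SDAD1, a ribosome biogenesis factor, stood at 8.51 and 7.77 (-0.74). These levels were well above the filter on both arrays. LRIF1, a nuclear protein of the inactive X chromosome and other silent chromatin, stood at 7.85 and 7.20 (-0.66). CNIH4, which helps membrane proteins leave the endoplasmic reticulum, stood at 7.75 and 7.12 (-0.64). RALB, a Ras-like GTPase, stood at 8.26 and 7.64 (-0.63). IL6ST, the gp130 receptor subunit shared by interleukin-6 family cytokines, stood at 7.36 and 6.73 (-0.62). No function common to these genes was tested.

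Of the dimmer low genes, HGSNAT, the lysosomal enzyme that acetylates heparan sulfate, stood at 5.69 in SCR and 4.87 in ADARkd (-0.83). METTL15, a methyltransferase of mitochondrial ribosomal RNA, stood at 5.81 and 5.11 (-0.70). CCDC127 differed by -0.78, KRTAP19-5, a hair keratin-associated protein, by -0.76, and NIBAN1, a stress-responsive protein, by -0.76. In all 5 the ADARkd level was under the filter and the SCR level above it.

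Past 2-fold in the other direction were RPL35 and ABAT. RPL35, a protein of the large ribosomal subunit with many pseudogene copies, stood at 5.06 in SCR and 6.19 in ADARkd, a difference of 1.13. ABAT, the transaminase that breaks down GABA, stood at 5.85 and 6.89 (1.04). Both were higher in ADARkd, and RPL35 was under the filter in SCR. CPN1, the catalytic subunit of the plasma carboxypeptidase N, stood at 6.34 and 7.26 (0.92). THYN1 stood at 5.43 and 6.34 (0.91). GP9, part of the platelet glycoprotein Ib complex, stood at 5.31 and 6.15 (0.84), and HSF1, the heat shock transcription factor, at 5.75 and 6.56 (0.81). In all of these the ADARkd array was the brighter one. ENTPD1-AS1, an antisense transcript whose overlap with its partner gene was not checked here, differed by 0.90, and the olfactory receptor OR2L3, dim on both arrays, by 0.94. LYPD2 was at 0.90, and the others of the 20 highest, apart from MYCN, lay between 0.58 and 0.74, with ZSCAN20, a zinc finger protein, at 5.92 and 6.67 and TOMM7, of the mitochondrial import pore, at 5.01 and 5.59.

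MYCN, a MYC family transcription factor, was the one gene at least 1.5-fold higher among the genes at or above the 75th percentile of level, at 6.96 in SCR and 7.78 in ADARkd. Its other transcript cluster, under the filter level at 4.19 and 4.10, differed by -0.09, and the mean of the 2 clusters by 0.36. The remaining 11 of the 12 highest differences among these bright genes were under 1.5-fold. TBCA, a tubulin folding cofactor, stood at 7.06 and 7.63 (0.57). SNRPF, a core protein of the spliceosomal small nuclear ribonucleoproteins, stood at 6.58 and 7.14 (0.56). PDSS1, which makes the isoprenoid tail of coenzyme Q, stood at 8.23 and 8.76 (0.53). NOP10, a protein of the H/ACA small nucleolar ribonucleoproteins, stood at 6.89 and 7.32 (0.44). These were again higher in ADARkd. PIMREG, a mitotic regulator, was at 8.33 and 8.81, and FBLN2, an extracellular matrix fibulin, at 7.01 and 7.55.

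Gene lists were described by the median of their kept members, beside the -0.07 of all kept genes. Of 48 lists, 45 had at least 5 kept members, and 7 of these had a median at least 0.1 from that of all genes, 5 below and 2 above. The lists and this threshold were chosen with earlier results of these data known, so the medians are no independent support.

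**Figure D2:**
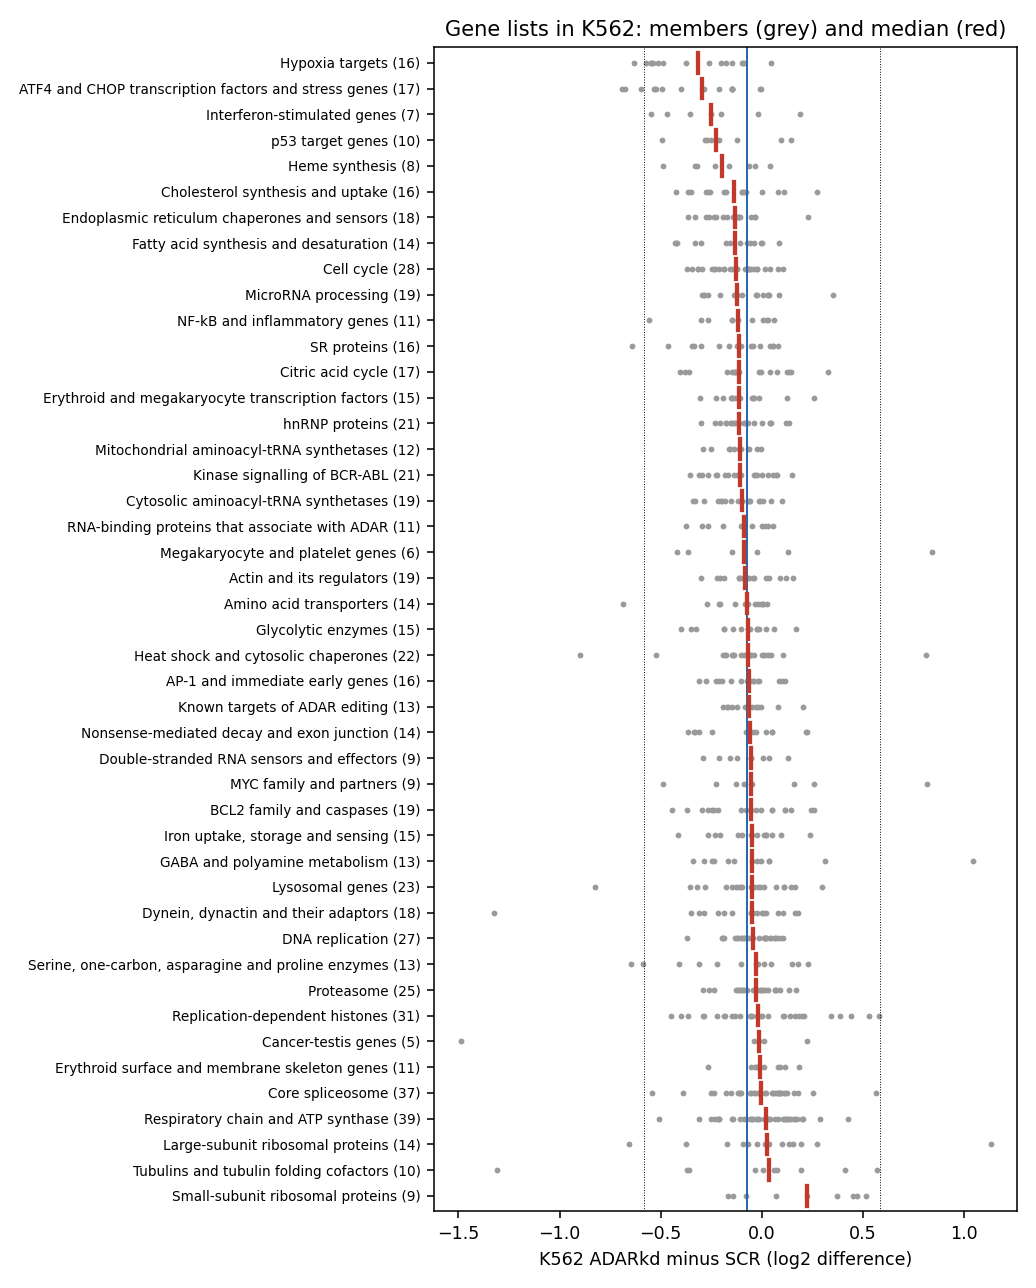
Medians of the log2 difference, ADARkd minus SCR, of the kept members of the gene lists in K562, with each member as a point; the vertical line is the median of all kept genes, -0.07. The hypoxia list has the lowest median, -0.32, with the ATF4 and CHOP list at -0.30, and the small-subunit ribosomal proteins have the highest at 0.22.

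The list with the lowest median held targets of the hypoxia-inducible factors, which switch cells to glycolysis and modify collagen and chromatin when oxygen is low. Of 16 kept members, 15 had a difference below 0, against 66.7% of all kept genes, and 15 were below the median of all kept genes. The list's median was -0.32, which is -0.25 relative to all genes. At least 1.5-fold lower was 1 member of the 16, against 0.759% of all kept genes. The count in the list was 0 with quantile or loess scaling. That member was BHLHE40, a transcriptional repressor of the circadian clock, at 8.63 in SCR and 8.0 in ADARkd (-0.63). PDK1, the kinase that shuts off pyruvate dehydrogenase, stood at 8.87 and 8.32 (-0.55). P4HA1, a collagen prolyl hydroxylase subunit, stood at 9.99 and 9.44 (-0.55), which put it far above the filter. KDM3A, a histone demethylase, stood at 7.78 and 7.24 (-0.54), and VEGFA, the angiogenic growth factor, at 7.65 and 7.16 (-0.49). NDRG1, a stress-responsive gene, was lower as well, at 6.28 and 5.71 (-0.57). The differences were smallest for SLC2A1 (-0.10), the glucose transporter GLUT1, EGLN3 (-0.09), an oxygen-sensing hydroxylase, and MXI1 (-0.09), while KDM4B was at 0.04. With the mean of a gene's clusters in place of one cluster, the relative median was -0.16. P4HA2 depended on its cluster, with -0.51 in the one used and 0.16 in the other, which was under the filter level at 4.69 and 4.85. Glycolytic enzymes as a separate list did not stand apart, with a median of -0.07 over 15 genes, although PFKFB4 (-0.40), ALDOC (-0.35) and ENO2 (-0.33) were lower in ADARkd.

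Promoters are shown for the lists with the lowest medians: of the hypoxia list the 2 members with a matched motif and the lowest differences, and of the ATF4 list the 1 member with a match. Promoter sequence was taken from RefSeq by Entrez number (GRCh38.p14) as the 250 bases before each start, 5′ to 3′ on the gene's strand. Capitals mark the motif, ACGTG (the core of the hypoxia response element) in BHLHE40 and P4HA1 and TGATGNAA (the C/EBP-ATF response element) in CHAC1, each searched on both strands. BHLHE40 is at chr3:4979187-4979436 on the + strand, P4HA1 at chr10:73096867-73097116 on the - strand and CHAC1 at chr15:40953221-40953470 on the + strand.
BHLHE40: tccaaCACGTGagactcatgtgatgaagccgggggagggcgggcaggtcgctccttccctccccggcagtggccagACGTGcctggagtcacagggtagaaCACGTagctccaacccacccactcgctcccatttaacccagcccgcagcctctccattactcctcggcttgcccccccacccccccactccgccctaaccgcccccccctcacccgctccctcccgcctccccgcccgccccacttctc
P4HA1: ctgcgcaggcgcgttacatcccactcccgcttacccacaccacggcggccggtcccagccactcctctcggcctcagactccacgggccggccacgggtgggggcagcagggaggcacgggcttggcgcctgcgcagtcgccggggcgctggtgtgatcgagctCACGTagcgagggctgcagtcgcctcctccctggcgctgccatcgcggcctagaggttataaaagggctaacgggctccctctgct
CHAC1: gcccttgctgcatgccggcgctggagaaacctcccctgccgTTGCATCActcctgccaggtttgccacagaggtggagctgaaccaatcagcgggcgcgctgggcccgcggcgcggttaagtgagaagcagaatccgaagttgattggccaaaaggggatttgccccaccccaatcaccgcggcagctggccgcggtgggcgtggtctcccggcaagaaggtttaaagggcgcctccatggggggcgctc
In BHLHE40, 4 matches were found, the first bases lying at -245, -244, -174 and -149 relative to the start, of which the first pair overlap as the palindrome CACGTG. The matches at -245 and -149 were on the strand opposite to the gene. P4HA1 had 1 match at -86 and CHAC1 had 1 at -209, both likewise on the opposite strand. In windows that add the 50 bases after the start, ACGTG was present in 7 of 13 hypoxia-list promoters (53.8%), KDM4B, the member that was not lower, among them, against 1673 of 5979 kept genes with a promoter (28.0%) and 2680 of all 11385 (23.5%). Of the genes at least 1.5-fold lower, 10 of 43 promoters (23.3%) held it, and of those higher, 3 of 14 (21.4%). TGATGNAA was present in 1 of 15 promoters of the ATF4 list (6.67%), 88 of 5979 kept genes (1.47%) and 282 of 11385 (2.48%). A match is a description of the letters alone.

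ATF4 and CHOP are transcription factors of the integrated stress response, in which amino acid shortage, heme shortage, endoplasmic reticulum stress or double-stranded RNA leads to phosphorylation of eIF2 alpha. Of 17 kept genes on the list of these factors and their stress targets, all 17 had a difference below 0, against 66.7% of all kept genes, and 15 were below the median of all kept genes. The list's median was -0.30 (-0.23 relative to all genes). At least 1.5-fold lower were 3 of the 17, against 0.759% of all kept genes. The count in the list was 0 with the offset of 16 or the filter at the 75th percentile. DDIT3, which encodes CHOP itself, stood at 6.66 in SCR and 5.97 in ADARkd (-0.69). ULBP1, a stress ligand recognised by natural killer cells, stood at 6.97 and 6.30 (-0.67). CTH, which makes cysteine from cystathionine, stood at 5.64 and 5.04 (-0.60). All 3 were higher in SCR, and CTH was under the filter level in ADARkd. CHAC1, which degrades glutathione, stood at 6.33 and 5.80 (-0.53), DDIT4, an inhibitor of mTORC1, at 7.97 and 7.44 (-0.53) and TXNIP, which binds thioredoxin, at 10.29 and 9.77 (-0.52). SESN2, another inhibitor of mTORC1, differed by -0.49, STC2 by -0.40 and TRIB3, a pseudokinase, by -0.30. The mRNA of ATF4 itself was level, at 6.50 on both arrays. With a filter at the 75th percentile of all genes, 7 members were left and their relative median was -0.071.

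**Figure D3:**
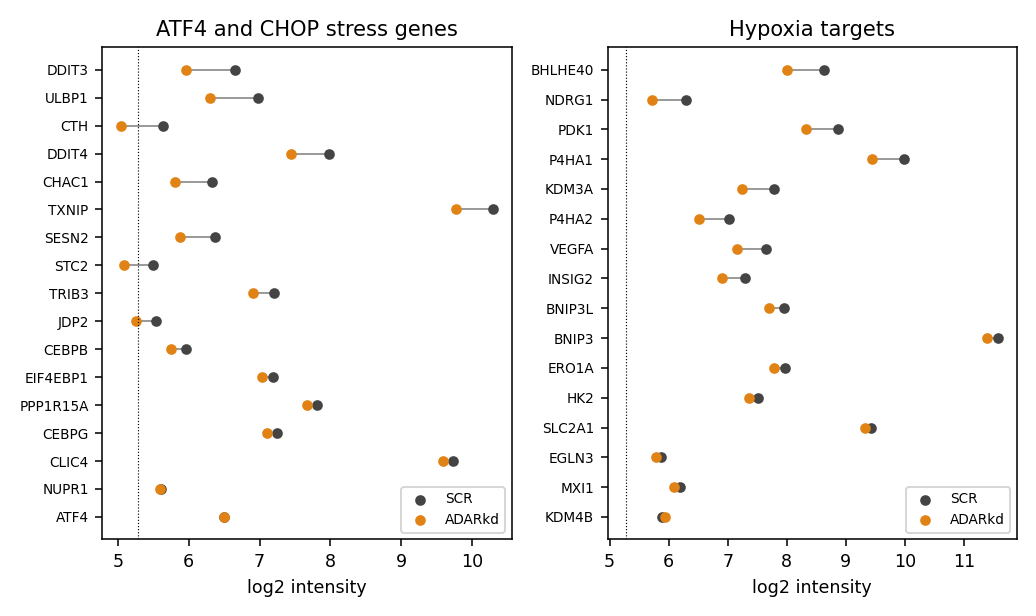
Log2 intensity of the kept members of the ATF4 and CHOP list and of the hypoxia list on the K562 SCR array and the K562 ADARkd array, joined by a line for each gene, with 1 array per arm and so no error bars. The ADARkd point lies left of the SCR point for BHLHE40 (8.63 and 8.0), DDIT3 (6.66 and 5.97) and every other member but KDM4B, with ATF4 and NUPR1 nearly level, and the dotted line is the filter level of 5.28.

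Genes of amino acid supply, many of them ATF4 targets, were divided. On the list of serine, one-carbon, asparagine and proline synthesis, 13 genes had a median of -0.03. PSAT1 (8.75 and 8.10, -0.65) and PHGDH (8.77 and 8.18, -0.59), consecutive enzymes of serine synthesis, and ASNS (8.41 and 8.0, -0.41), asparagine synthetase, were lower in ADARkd. TYMS, thymidylate synthase, was at 0.18 and PYCR3, of proline synthesis, at 0.23. Among 14 kept amino acid transporters the median was -0.07, as for all kept genes, with 1 member far from it: SLC7A11, the cystine and glutamate exchanger, stood at 7.76 in SCR and 7.08 in ADARkd (-0.69). The leucine transporter SLC7A5 (-0.07) and its partner SLC3A2 (0.02) hardly differed. Of 19 cytosolic aminoacyl-tRNA synthetases, 11 were below the median of all kept genes, and their own median was -0.10, with the lowest values in WARS1 (-0.34), EPRS1 (-0.33) and TARS1 (-0.29). Promoters of 4 of 16 of these synthetases (25%) held TGATGNAA, those of AARS1, IARS1, MARS1 and NARS1. So did 3 of 13 promoters of the amino acid transporters (23.1%), against 1.47% of kept genes and 2.48% of all genes. Of 12 mitochondrial synthetases 8 were below the median of all kept genes, with a median of -0.11. Chaperones and degradation factors of the endoplasmic reticulum had 14 of 18 below the median of all kept genes, with a median of -0.13, EDEM1 at -0.37 and the stress sensor ATF6 at -0.33.

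Genes that respond to interferon were mostly dim in K562. Of 33 measured interferon-stimulated genes only 7 were kept, 5 of them below the median of all kept genes, with a median of -0.25 (-0.18 relative to all genes). IFI6 stood at 6.19 in SCR and 5.64 in ADARkd (-0.55), TRIM21, an antibody receptor and ubiquitin ligase, at 5.67 and 5.20 (-0.47) and XAF1 at 7.15 and 6.80 (-0.35). ISG15 differed by -0.02 and IFITM1 by 0.19. The 26 members under the filter had a median of 0.13, the same as all genes there, and with all 33 members the relative median turned to 0.082. Among 9 kept sensors and effectors the median was -0.06, EIF2AK2, which encodes PKR, stood at 7.25 and 6.96 (-0.29), and MAVS, the adaptor of RIG-I-like receptors, was at 0.13. Of the NF-kB list, 11 kept genes had a median of -0.12, with NFKBIA, the inhibitor induced by NF-kB, at 6.27 and 5.71 (-0.56).

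Known edited transcripts hardly differed in level. The 13 kept members had a median of -0.06, close to that of all genes, and ran from COPA at -0.19 to SON at 0.20, with CDK13 at -0.17, AZIN1 at -0.17, CTSS at -0.15 and BLCAP at 0.08. Editing itself was not measured. Of 11 kept proteins that bind the same RNAs as ADAR or bind ADAR, with a median of -0.09, STRBP, a spermatid RNA-binding protein with double-stranded RNA domains, was at -0.38, NONO, a paraspeckle protein, at -0.30, and DROSHA, the nuclear microRNA nuclease, at -0.27. The microRNA pathway list had a median of -0.12 over 19 genes, with GEMIN4 at 0.35 and LIN28B at -0.30.

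Splicing factors are of interest because splicing was the study's stated question. The 37 kept core spliceosome proteins had a median of -0.01, with only 10 below the median of all kept genes. SNRPF (0.56) was the highest and U2AF1, which recognises the AG of the 3′ splice site, the lowest at 6.95 in SCR and 6.40 in ADARkd (-0.54). SF3B6, part of the branch point complex, was at -0.39, while its partners SF3B1 (10.02 and 9.91) and SF3B3 (9.84 and 9.83) were close on the 2 arrays. The 16 SR proteins and their kinases had a median of -0.11, with 1 at least 1.5-fold lower, against 0.759% of all kept genes. This was TRA2A, an SR-like regulator of exon inclusion, at -0.64 in the cluster used and -0.05 in the other. It was not past 1.5-fold with the offset, quantile or loess scaling or the mean of clusters. SRSF10 stood at 6.53 and 6.06 (-0.46), and SRRM1 was at -0.35. The 21 hnRNP genes had a median of -0.11 with HNRNPLL at -0.30 and PTBP1, the polypyrimidine tract binding protein, at 0.14. For nonsense-mediated decay the median of 14 genes was -0.06, with RBM8A, of the exon junction complex, at -0.36 and SMG8 at 0.22.

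Ribosomal proteins of the small subunit had the highest list median. The 9 kept members had a median of 0.22, which is 0.29 above all genes, with 3 below 0 and 0 past 1.5-fold. RPS6, the target of S6 kinase, stood at 8.85 in SCR and 9.32 in ADARkd (0.47). RPS13 stood at 5.12 and 5.63 (0.51), RPS21 at 6.09 and 6.55 (0.45) and RPS15A at 7.13 and 7.50 (0.37). Of these, RPS13 was under the filter level in SCR. RPS14 was at -0.14 and RPS24 at -0.08. Of 32 listed genes 11 were measured under a single symbol and 9 kept, many ribosomal protein genes have near-identical pseudogenes, and RPS25 was at -0.17 in one cluster and 0.22 in the other. With the filter at the 75th percentile 5 members were left and the relative median was 0.15. Of 14 large-subunit proteins the median was 0.03, with RPL35 at 1.13 and RPL22, an RNA-binding ribosomal protein, at 7.99 and 7.33 (-0.66). Respiratory chain and ATP synthase genes had a median of 0.02 over 39, with only 12 below the median of all kept genes. NDUFA1 was at 0.43 and NDUFB1 at -0.51, both subunits of complex I. The citric acid cycle list had a median of -0.11 over 17, with the isocitrate dehydrogenases IDH1 (-0.40) and IDH2 (-0.38) lower and CS, citrate synthase, at 0.33.

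The 10 kept tubulins and tubulin cofactors were the other list above the median of all genes, by 0.11, but they did not differ in one direction. TUBA1B (-1.31), TUBB (11.02 and 10.65, -0.37) and TUBB4A (5.60 and 5.24, -0.36) were lower in ADARkd, and TBCA (0.57), TUBA8 (5.34 and 5.75, 0.41) and TUBG1 (0.19), the gamma-tubulin of centrosomes, were higher. Without the filter the relative median was 0.01. TUBD1, TUBB2B, TUBB6 and TBCD were between -0.03 and 0.07. Under the filter, TBCC stood at 5.10 and 5.00 and TUBG2 at 4.35 and 4.55. Dynein and its adaptors, apart from BICD1, had DYNLT1 lowest at -0.35, and the 18 genes had a median of -0.05.

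In the erythroid programme, the 3 kept globins of 10 listed and most kept membrane genes were nearly level. Of 8 kept heme synthesis genes 5 were below the median of all kept genes, with a median of -0.20 (-0.13 relative to all genes) and 0 past 1.5-fold. With the filter at the 75th percentile the relative median was -0.20. TMEM14C, which carries protoporphyrinogen into the mitochondrial matrix, stood at 8.39 in SCR and 7.90 in ADARkd (-0.49). ALAS2, the erythroid enzyme of the first step, stood at 8.64 and 8.31 (-0.33), and CPOX, of a late step, at 7.64 and 7.32 (-0.32). The last enzyme FECH was at -0.16, UROD at -0.03 and the housekeeping ALAS1 at 0.04. Of 10 listed globins only 4 were measured under a single symbol, and the others have no value here. HBZ differed by -0.08, HBQ1 (5.66 and 5.57) by -0.09 and HBB (5.50 and 5.60) by 0.10, and HBM, at 5.19 and 5.22, was under the filter. Surface and membrane skeleton genes had a median of -0.01 over 11, with only 1 below the median of all kept genes. RHAG, the Rh-associated glycoprotein, stood at 10.07 and 10.04, and TFRC, the transferrin receptor, was lowest at 10.97 and 10.70 (-0.27). SLC25A37, the mitochondrial iron importer mitoferrin, was at -0.41 in one cluster and -0.19 in the other. Transcription factors of the lineage ran from E2F2 at -0.30 to GFI1B, a repressor of both erythroid and megakaryocyte genes, at 8.46 and 8.72 (0.26), with KLF1 at 0.13. Of 6 kept megakaryocyte genes, GP9 was at 0.84 and ITGA2B, the platelet integrin alpha subunit, at -0.42.

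The p53 target list had a median of -0.23 over 10 kept genes (-0.16 relative to all genes), with 8 below the median of all kept genes. K562 lacks functional p53, so these levels were measured without it. PMAIP1, the pro-apoptotic NOXA, stood at 5.91 in SCR and 5.41 in ADARkd (-0.50), POLH, a translesion polymerase, was at -0.28, and CDKN1A, the cell cycle inhibitor p21, stood at 5.47 and 5.20 (-0.27). BAX was at 0.15. Of apoptosis genes, APAF1 (-0.44) and CASP9 (-0.37), which form the apoptosome, were lower, and the 19 kept genes had a median of -0.05. Of 28 kept cell cycle genes 17 were below the median of all kept genes, with a median of -0.13, and all were within 0.37 of 0: KIF11, the mitotic kinesin, was lowest at 7.11 and 6.74, and PLK1 highest at 9.39 and 9.49. DNA replication genes had a median of -0.05 over 27. Replication-dependent histones were spread, with H3C1 (6.67 and 7.25, 0.58) and H3C2 (8.0 and 8.53, 0.53) higher and H2AC17 (-0.45) and H2BC21 (-0.40) lower, and a median of -0.02 over 31. Histone genes are near-identical in sequence, so single members are uncertain.

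Lipid synthesis genes were slightly below the median of all genes. For cholesterol the median over 16 was -0.14, with MSMO1 (8.40 and 7.98, -0.42), a sterol oxidase, lowest and HMGCS1 at -0.25. For fatty acids it was -0.13 over 14, with the desaturase FADS1 and the acyl-CoA synthetase ACSL1 both at -0.43 and FASN at 0.08. Signalling genes of BCR-ABL had a median of -0.11 over 21: PIM1, a STAT5-induced kinase, stood at 8.13 and 7.77 (-0.35) and ABL1 at 8.99 and 8.85 (-0.14). Proteasome subunits were close to level, with a median of -0.03 over 25. The lysosome list, at -0.05 over 23, held HGSNAT and also MANBA, the beta-mannosidase, at -0.36. Of GABA and polyamine genes, ABAT was alone in being higher by over 1.5-fold, and ALDH5A1, the next enzyme of GABA breakdown, was at -0.34.

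The same genes were set beside the arrays labelled HepG2, which share no array with K562. Of 6204 genes kept in both lines, 55 in K562 and 965 on the arrays labelled HepG2 were at least 1.5-fold apart, and 21 were so in both, which is 38.2% of the first list and 2.18% of the second. Over all kept genes of each line, 18.1% of 7116 on the arrays labelled HepG2 and 1.03% of 7116 in K562 were at least 1.5-fold apart. Of the 21 genes, 6 differed the same way, among them ADAR, the target of the siRNA. ADAR differed by -1.21 in K562 and -1.69 on the arrays labelled HepG2, HGSNAT by -0.83 and -1.66, and BTBD2, a BTB domain protein, by -0.60 and -0.80. HGSNAT and BTBD2 were under the filter level on the K562 ADARkd array. Higher in ADARkd of both were CPN1 (0.92 and 0.79), DNM1L (0.60 and 0.80), the GTPase of mitochondrial fission, and DMAC1 (0.59 and 0.60), an assembly factor of complex I. The other 15 differed in opposite ways, among them TUBA1B (-1.31 and 1.30), DNAJC8 (-0.90 and 0.87), RALB (-0.63 and 1.10) and DDIT3 (-0.69 and 0.70), lower in K562 ADARkd alone, and ABAT (1.04 and -0.91), ZSCAN20 (0.74 and -0.78) and MYCN (0.82 and -0.66), higher in it alone. Across the 6204 genes the differences correlated at r = 0.03, as a description over genes of 4 arrays. The hypoxia list was low in both, with a median of -0.32 in K562 and -0.32 over 18 genes on the arrays labelled HepG2, where all kept genes had a median of 0.11. BHLHE40 was an exception at 0.10 there, while NDRG1 was at -1.04 and KDM3A at -0.84.

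**Figure D4:**
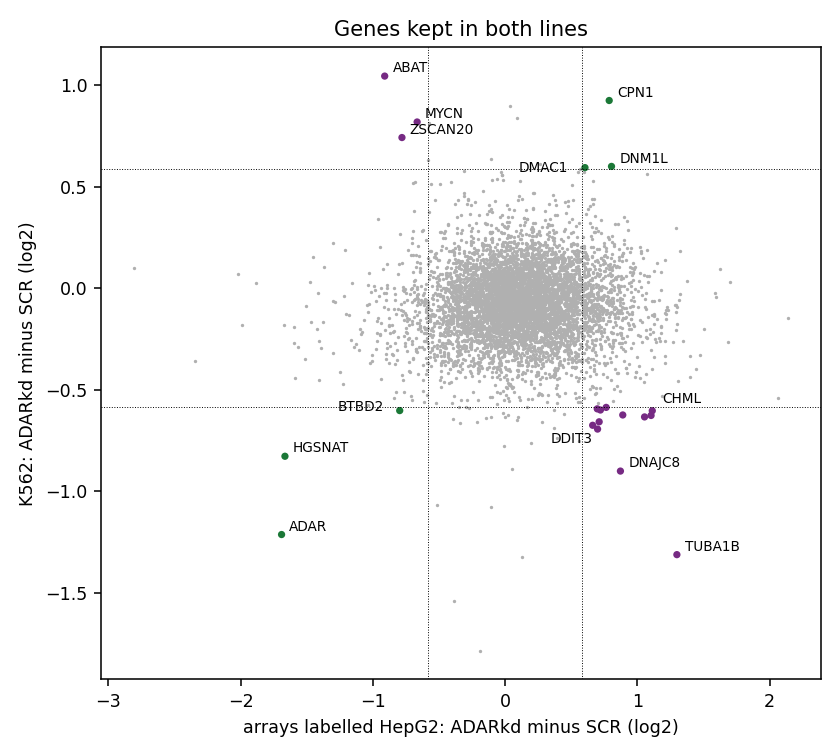
Each point is one of 6204 genes kept in both lines; the x axis is the log2 difference, ADARkd minus SCR, on the arrays labelled HepG2 and the y axis that in K562, with dotted lines at 1.5-fold. The 6 genes past 1.5-fold the same way are green, with ADAR at -1.69 and -1.21, the 15 past it in opposite ways are purple, and some purple points near DDIT3 carry no name.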

How the data were processed

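Gene-level exon array values of 4 total RNA samples were used, 1 per line and arm, and the K562 pair is described. The deposited intensity per transcript cluster is on a linear scale. The submitters' processing notes name RMA and hg18; versions and later steps are not given in the sources used here. Column medians of the intensity were 36.7 and 36.1 (labelled HepG2) and 36.7 and 37.0 (K562). Nothing says that the cultures were grown separately, and the number of arrays limits the precision.

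In the platform annotation 14432 clusters had 1 symbol, 2408 several and 1041 none; only the first were named. By Entrez number 14404 were found in RefSeq and 0 symbols changed. For 197 genes with several clusters the one with the highest mean over the 4 arrays was used. Log2 was taken without an offset, genes were kept per line when their mean reached the all-gene median, and differences are ADARkd minus SCR. The counting was tested on simulated data. Promoters came from RefSeq GRCh38.p14, matched by Entrez number, with a single promoter per gene, the first by coordinate. Coordinates of the files' build were not used. Python 3.11.15, numpy 2.4.6, pandas 2.3.3, statsmodels 0.14.6 and matplotlib 3.10.9 were used.

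Genes were named by rule: the 20 highest and the 20 lowest differences; the 12 highest and 12 lowest among kept genes at or above the 75th percentile of level; of each list with 5 or more kept members, the 6 largest differences and any at least 1.5-fold apart; all measured ADAR family, globin, 9p21 and tubulin genes; and genes at least 1.5-fold apart the same way in both lines. Other names (list members with small differences, marker genes, genes opposite in the 2 lines) were chosen after their values were seen. Members and lists were chosen with earlier results of these data known. Alternatives were quantile and loess scaling (span 0.4), an offset of 16, no filter, a filter at the 75th percentile, and the mean of a gene's clusters.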

Additional observations from a re-analysis of the deposited data

Results flagged for a closer look

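For 3 gene lists the median lay at least 0.1 from that of all kept genes in each line, below it in K562 and above it on the arrays labelled HepG2; with 1 array per arm the difference between the lines was not tested. The ATF4 and CHOP list was at -0.23 in K562 (17 genes) and 0.29 on the arrays labelled HepG2 (18 genes), where CHAC1 was at 1.19, STC2 at 1.45 and SESN2 at 0.72 against -0.53, -0.40 and -0.49 in K562. The p53 target genes were at -0.16 (10 genes) and 0.15 (14 genes), with GADD45A, a stress-induced growth arrest gene, at -0.25 in K562 and 1.13 on the arrays labelled HepG2, and PMAIP1 at -0.50 and 0.82. Heme synthesis was at -0.13 (8 genes) and 0.13 (7 genes).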

How the results depend on the processing

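The count of genes at least 2-fold apart (11) was 7 with an offset of 16 added to each intensity, 30 with no filter, 1 with the filter at the 75th percentile, and 6 when both K562 arrays had to reach the filter level, an alternative chosen after seeing the data. The count at least 1.5-fold apart (73) was 30 with the offset, 247 with no filter (170 higher and 77 lower) and 14 with the stricter filter (1 higher and 13 lower). Under quantile scaling, loess scaling and the mean of clusters both counts stayed within 1.5 times. Relative to all genes, the interferon list turned from -0.18 to 0.082 with no filter, and with the stricter filter the ATF4 and CHOP list moved to -0.071 (7 genes) and the small-subunit ribosomal proteins to 0.15 (5 genes). The hypoxia list ran from -0.30 to -0.16, the heme list from -0.20 to -0.11, the tubulin list from 0.01 to 0.12 and the p53 list from -0.16 to -0.13 over the alternatives. Quantile scaling put the median of all kept genes at 0.00070 and loess at -0.0043. Of 58 named genes followed (the ends of the range, over all kept and over bright genes), the offset moved 32 by more than 0.1. The mean of clusters moved ARLN, MYCN and KIF5A. None changed direction where still kept, which is no support, because an offset cannot reverse a difference and a filter leaves it as it is. HGSNAT and PMS2CL fell under the filter with quantile scaling. No paired analysis was possible because each arm of K562 has 1 array, and for the same reason no array could be left out. Signal over background was not analysed, so values near the filter level are the least certain.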

Other observations

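The following lists were chosen after the values were seen and are description only. Genes of MHC class I presentation had a median of -0.20 over 8 kept genes. HLA-E, a ligand of natural killer cell receptors, stood at 6.42 in SCR and 5.80 in ADARkd (-0.62), the peptide-trimming ERAP1 at 7.27 and 6.85 (-0.42) and the chaperone TAPBP at 6.84 and 6.44 (-0.40). PSME2, an activator subunit of the proteasome, was higher in ADARkd, at 5.07 and 5.64, and B2M differed by -0.10. In the interleukin-6 family, JAK1, which signals from IL6ST, was lower as well, at 7.76 and 7.42 (-0.34), while STAT3 (-0.10) and TYK2 (-0.01) hardly differed.

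Of 14 genes of the SMN complex and small nuclear ribonucleoprotein assembly, with a median of 0.04, GEMIN2 differed by 0.59, CLNS1A (7.80 and 8.19), a subunit of the methylosome, by 0.39 and GEMIN4 by 0.35, while GEMIN6 (7.74 and 7.29) differed by -0.45. Of 11 mitochondrial fission and fusion genes, with a median of -0.08, DNM1L (5.88 and 6.48) and SH3GLB1 (5.75 and 6.32) were higher in ADARkd, and GDAP1 (5.83 and 5.39) and MFF (-0.24), a receptor of the DNM1L protein, lower. Genes of histone variants and histone chaperones had a median of -0.12 over 11, with H2AZ2 lowest at -0.32.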
